A study of Mus musculus with 15 samples.

Results

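The apolipoprotein genes described here are 10 genes chosen by name: Apoa1, Apoa2, Apoa4, Apoa5, Apob, Apoc1, Apoc2, Apoc3, Apoe and Apom. They were found by symbol in a table of 24965 genes, where each of the 10 stands on a single row. All 10 were among the 13335 genes for which the authors gave an adjusted p.

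Apolipoproteins are the protein coat of lipoproteins, the particles that carry triglyceride and cholesterol in blood, and the liver makes most of them. Apolipoprotein B forms the frame of very low density lipoprotein, whereas apolipoprotein A-I forms that of high density lipoprotein (HDL) and takes up cholesterol exported by cells through the transporter ABCA1. The small C apolipoproteins and apolipoprotein A-V set how fast lipoprotein lipase removes triglyceride from the particles, and apolipoprotein E is a ligand for their uptake by receptors.

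Liver RNA came from male C57BL/6J mice, 9 weeks old, that all carried floxed alleles of Gata4 (Gata4fl/fl), which encodes a zinc finger transcription factor. At 8 weeks of age the mice had received adeno-associated virus of serotype 8, either AAV8-Tbg-Cre, with Cre under the hepatocyte promoter Tbg (labelled Gata4LKO, called knockout here), or empty AAV8 (labelled Control), and livers were taken 7 days later. The comparison read here is of 4 fasted knockout with 4 fasted control livers, each after a fast of 12 h. The model behind it also took in 4 control and 3 knockout livers of mice refed for 12 h on a diet rich in sucrose (69%, with 10% fat), and these are not compared here. Control virus carried no Cre, so that Cre and the genotype label cannot be told apart.

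The deposited table gives 1 mean over all 15 libraries and 1 log2 fold change with its standard error for each gene, with no values per liver. Levels below are therefore means over refed and fasted livers together, in counts divided by the authors' size factors (normalized counts). A log2 fold change is knockout minus control in fasted livers, the reading explained with the processing. The value after ± is its SE, and 95% intervals are computed from that SE. Genes count as called, and are said to rise or fall, where the authors' adjusted p is under 0.05. In the labels, the titles within a group share a number that no other group has, and its meaning is not stated. Whatever it marks, such as a cage, a litter or a day, cannot be told apart from genotype in this comparison, and the p-values measure only the spread between these samples.

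Gata4 itself had a log2 fold change of 0.31 ± 0.15 in the authors' deposited table (adjusted p 0.361) and was not lower in livers labelled knockout. Since the floxed exons are not named in the labels, this total cannot check the deletion, and all directions are between livers as labelled. The 15 libraries had size factors from 0.912 to 1.11. Hepatocyte markers were present at high level, with Alb, the albumin gene, as the most abundant gene of the table. Of 19 tested hepatocyte markers 0 passed the authors' DESeq2 Wald test and 2 had an unadjusted p under 0.05. Among all tested genes the shares were 2.19% and 11.4%.

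Apoa1, the gene of the main HDL protein, was the only 1 of the 10 apolipoprotein genes that was called: it fell, 0 rose and 9 did not pass. Its RNA was lower by a log2 difference of -0.48 ± 0.11 in the authors' deposited table, with a 95% interval from -0.70 to -0.27. On the linear scale this is a change of -28.5%, with an interval from -38.4% to -17.1%. The adjusted p of Apoa1 was 0.00134 (DESeq2 Wald test of the authors, Benjamini-Hochberg). Among all tested genes 2.19% were called, 1.60% lower and 0.585% higher, and 11.4% had an unadjusted p under 0.05, against 2 of the 10 apolipoproteins (Apoa1 and Apob). The median log2 fold change of the 10 was 0.02, beside 0.01 for all tested genes.

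The call of Apoa1 depends on how its statistic is read. With the same Wald statistic set against a t distribution with 11 degrees of freedom, in place of the normal distribution the authors used, the adjusted p of Apoa1 was 0.141, and 38 genes in all were called in place of 292. Over the other alternatives it lay between 0.000984 and 0.00251.

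**Figure D1:**
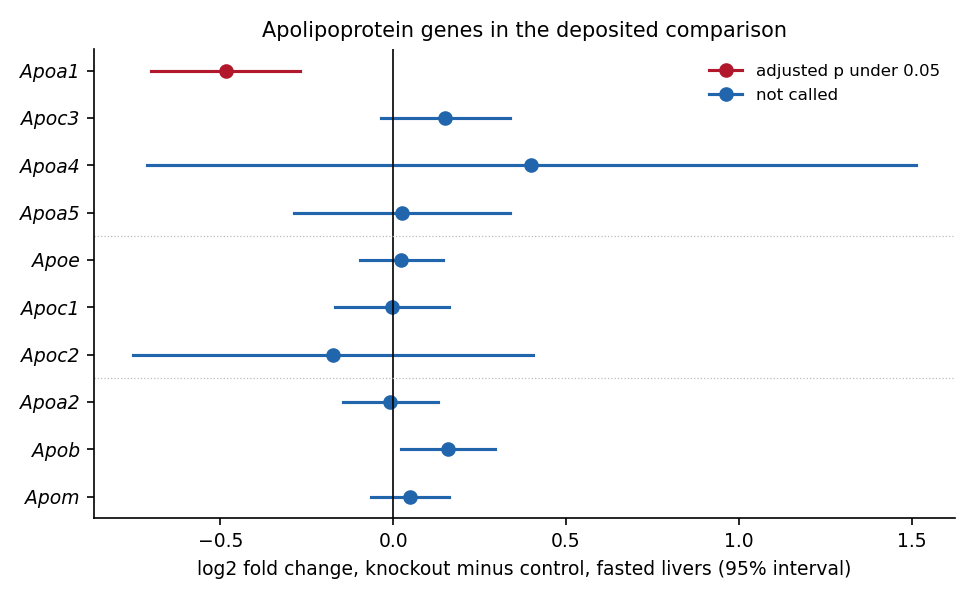
Log2 fold change of each apolipoprotein gene between fasted knockout and fasted control livers (x axis, knockout minus control), with points for the deposited estimates and lines for 95% intervals. Dotted lines separate the chromosome 9 cluster, the chromosome 7 cluster and the remaining genes. Apoa1, in red, lies at -0.48 and is the only called gene, while 5 of the 10 estimates lie within 0.05 of 0.

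The sequence upstream of Apoa1 is shown because it is the called member, together with that of Apoa5, which stands in the same gene cluster and was not called, and that of Apoc2, which holds a GATA site and the only DR1 found among the members. The sequences are from RefSeq (GRCm38.p6), read 5′ to 3′ along the gene, and end before the first annotated exon base. Capitals mark motifs that a search found on either strand, namely the GATA site (AGATAA or, with another last base, AGATAG, and TGATAA or, likewise, TGATAG), the nuclear receptor motif (AGGTCA), the direct repeat of that motif with 1 base between the repeats and at most 1 mismatch (called DR1), the TATA box (TATAAA), the CCAAT box (CCAAT), the E-box (CACGTG) and the sterol element (TCACCCCAC). A DR1 holds the nuclear receptor motif, so these overlap.
Apoa1, chr9:46228380-46228579, plus strand: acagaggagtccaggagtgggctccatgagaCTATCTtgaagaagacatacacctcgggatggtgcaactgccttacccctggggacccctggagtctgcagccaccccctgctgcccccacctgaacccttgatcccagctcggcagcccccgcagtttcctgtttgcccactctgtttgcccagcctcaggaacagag
Apoa5, chr9:46268358-46268607, plus strand: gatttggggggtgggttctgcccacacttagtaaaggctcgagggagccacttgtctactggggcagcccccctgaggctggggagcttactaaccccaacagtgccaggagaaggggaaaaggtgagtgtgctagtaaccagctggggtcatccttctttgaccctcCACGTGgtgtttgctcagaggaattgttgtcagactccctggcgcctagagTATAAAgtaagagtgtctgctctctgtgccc
Apoc2, chr7:19677942-19678082, minus strand: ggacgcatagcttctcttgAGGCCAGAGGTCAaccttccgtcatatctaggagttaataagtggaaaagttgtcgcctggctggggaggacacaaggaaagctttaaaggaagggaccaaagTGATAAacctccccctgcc

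The Apoa1 window from 250 bases before to 50 bases after its RefSeq start held 2 GATA sites, at -219 to -214 (CTATCT, the reverse strand of AGATAG) and at 16 to 21 after the start. Of 8 apolipoprotein genes with such a window, 3 held a GATA site (Apoa1, Apoc2 and Apoe), whereas 29.8% of all 32851 RefSeq promoter windows of the same length held 1 or more. The 8 genes have 12 windows between them, 1 for each annotated start, and 3 of these 12 held a GATA site. Apoe has 3 annotated starts, and its GATA site lies before 1 of them. A TATA box was found in 4 of the 8 genes and in 13.6% of all windows. For each motif a gene counts if any of its windows holds it, whereas the shares are of single windows. In Apoa5 the TATA box lay 26 to 31 bases before the first of its starts. The matches of the other 3 genes lay farther off, at -60 to -55 in Apob, and before 1 start each at -212 to -207 in Apoa2 and -100 to -91 in Apoe. The DR1 was found in Apoc2 alone of the 8, and in 0.554% of all windows. The E-box was found in Apoa5 (7.15% of all windows), the nuclear receptor motif in Apoa2 and Apoc2 (16.3%), the CCAAT box in Apoa2 (37.4%) and the sterol element in 0 of the 8 (0.551%). A match describes letters in the window and does not show binding.

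Levels of the 10 mRNAs spanned a wide range. Per kilobase of annotated exon, Apoe was the most abundant, with a mean of 107235 normalized counts per kb computed from the authors' deposited table. Apoa2 followed at 98090, Apoa1 at 84665 and Apoc1 at 49711 normalized counts per kb, all genes of small exchangeable proteins that ride on HDL and other particles. Apob, whose mRNA is by far the longest of the 10, stood at 14163 normalized counts per kb and Apoc3 at 13675. Apoa4 at 7958, Apoa5 at 4673 and Apom at 2924 followed, and Apoc2 was last at 62.1 normalized counts per kb. Since 79.5% of the exon bases of Apoc2 are also those of another gene, its value cannot be taken as that of the whole transcript. The spread over livers of these levels is not in the table, so neighbouring ranks such as Apob and Apoc3 cannot be separated. Together the 10 genes held 3.69% of all normalized counts, of which Apoe made 1.27% and Apob 1.10%.

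**Figure D2:**
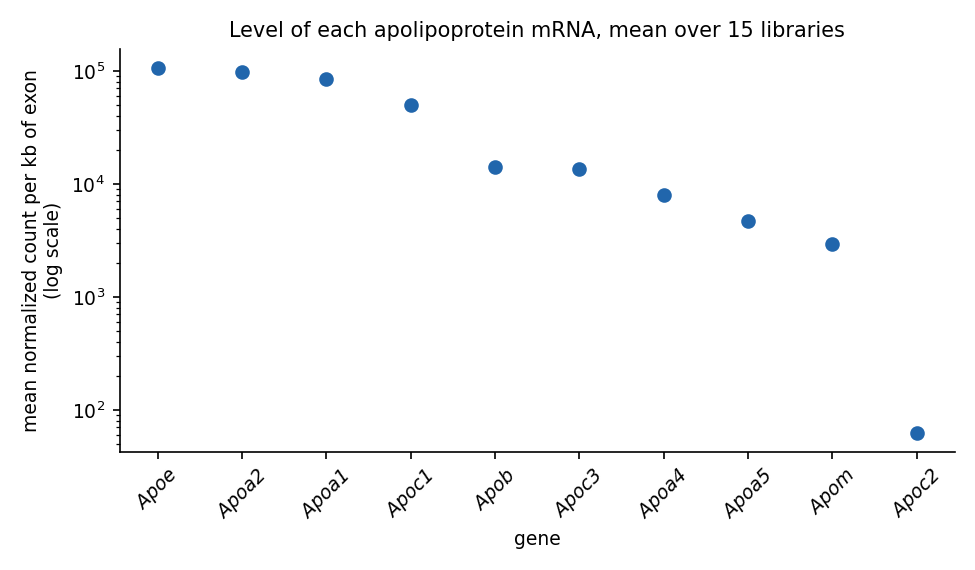
Mean normalized count per kilobase of exon (y axis, log scale) for each apolipoprotein gene (x axis), as a mean over 15 libraries of all 4 groups. Levels run from 107235 for Apoe to 62.1 for Apoc2, and no error can be given because the table holds no values per liver. Of the exon bases of Apoc2, 79.5% are also those of another gene, so its level cannot be taken as that of the whole transcript.

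Apoa1 (ENSMUSG00000032083, chromosome 9, 46228580 to 46230466, mm10) ranked 21st by mean among tested genes, with 104646 normalized counts in the authors' deposited table. Among 215 tested genes with a mean of at least 10000 normalized counts, 13 were called (6.05%), 8 of them lower (3.72%), against 1 of the 8 apolipoproteins in that class. Apoa1 had the highest mean of these 13 genes and the 4th smallest p in the class. A larger absolute log2 fold change was seen in 12 of those 215 genes.

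The second HDL protein gene, Apoa2 (ENSMUSG00000005681, chromosome 1, 171225054 to 171226379), did not follow Apoa1. Its log2 fold change was -0.01 ± 0.07 in the authors' deposited table, from a mean of 52674 normalized counts. The 95% interval of its change ran from -9.59% to 9.30%, which does not overlap that of Apoa1, although the difference between these genes was not tested because the table has no covariances. Apom, which encodes a small HDL protein that carries sphingosine-1-phosphate (ENSMUSG00000024391, chromosome 17, 35128997 to 35132050), had a log2 fold change of 0.05 ± 0.06 in the authors' deposited table. Its interval ran from -4.44% to 11.7%, the narrowest of the 10 on the log2 scale.

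Apob (ENSMUSG00000020609, chromosome 12, 7977648 to 8016835) pointed the other way from Apoa1. Its log2 fold change was 0.16 ± 0.07, with an unadjusted p of 0.0231 and an adjusted p of 0.306 in the authors' deposited table, so it was not called. The 95% interval of its change ran from 1.52% to 22.7%. Apoe (ENSMUSG00000002985, chromosome 7, 19696109 to 19699188) was close to level, with a log2 fold change of 0.02 ± 0.06 in the authors' deposited table and an interval of its change from -6.50% to 10.5%. Macrophages also make apolipoprotein E. Among all tested genes 2.19% passed the authors' DESeq2 Wald test and 11.4% had an unadjusted p under 0.05. Of 16 tested Kupffer cell and macrophage markers, 0 passed that test and 2 had an unadjusted p under 0.05. Of these markers 15 had a negative estimate (median log2 fold change -0.27). These markers summed to 4614 normalized counts, of which 1829 came from Slc40a1, the 1 with a positive estimate, and Apoe averaged 229268. Marker counts do not give the share of Apoe RNA that macrophages make, and the part of macrophages in the Apoe estimate was not tested. In bulk liver, fewer cells of a type and less RNA per cell cannot be told apart.

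The C apolipoproteins were not called. Apoc3, an inhibitor of lipoprotein lipase and of particle uptake (ENSMUSG00000032081, chromosome 9, 46232933 to 46235636), had a log2 fold change of 0.15 ± 0.10 in the authors' deposited table. Its interval, from -2.42% to 26.3%, does not overlap that of its neighbour Apoa1, and that difference was likewise not tested. Apoc1 (ENSMUSG00000040564, chromosome 7, 19689481 to 19692660) had the estimate closest to 0, at -0.00295 ± 0.08 on the log2 scale in the authors' deposited table. Its interval ran from -11.0% to 11.9%.

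Apoc2, the activator of lipoprotein lipase (ENSMUSG00000002992, chromosome 7, 19671579 to 19677941), was the one scarce transcript, with 50.5 normalized counts as its mean in the authors' deposited table. Its log2 fold change was -0.17 ± 0.30 in the authors' deposited table, and the interval of its change ran from -40.6% to 32.5%. In the GENCODE vM21 annotation, 79.5% of the exon bases of Apoc2 are also exon bases of Gm44805 on the same strand, a gene that spans Apoc2 and Apoc4. For the other 9 genes that share was 0%. How the authors' counter treated reads that lie in exons of both genes is not given in the sources used here. No mean was found for Gm44805 in the deposited table. If such reads were dropped, the count of Apoc2 would be too low, and this was not tested. Neither the level nor the change of Apoc2 can therefore be taken as that of the whole transcript. Apoc4, the next gene on the same strand, shares 4.69% of its exon bases with Gm44805 and averaged 2899 normalized counts, with a log2 fold change of -0.05 ± 0.09 in the authors' deposited table.

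Apoa4 and Apoa5 lie downstream of Apoa1 in the same cluster. Apoa4, a protein of triglyceride-rich particles (ENSMUSG00000032080, chromosome 9, 46240696 to 46243459), had the largest positive estimate, a log2 fold change of 0.40, and also the largest error, 0.57, in the authors' deposited table. Its interval ran from -38.9% to 185%, so that both a loss as large as that of Apoa1 and a rise well above it lie inside. Apoa5, which enhances lipolysis (ENSMUSG00000032079, chromosome 9, 46268633 to 46271919), had a log2 fold change of 0.03 ± 0.16 in the authors' deposited table, with an interval from -17.99% to 26.4%.

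**Figure D3:**
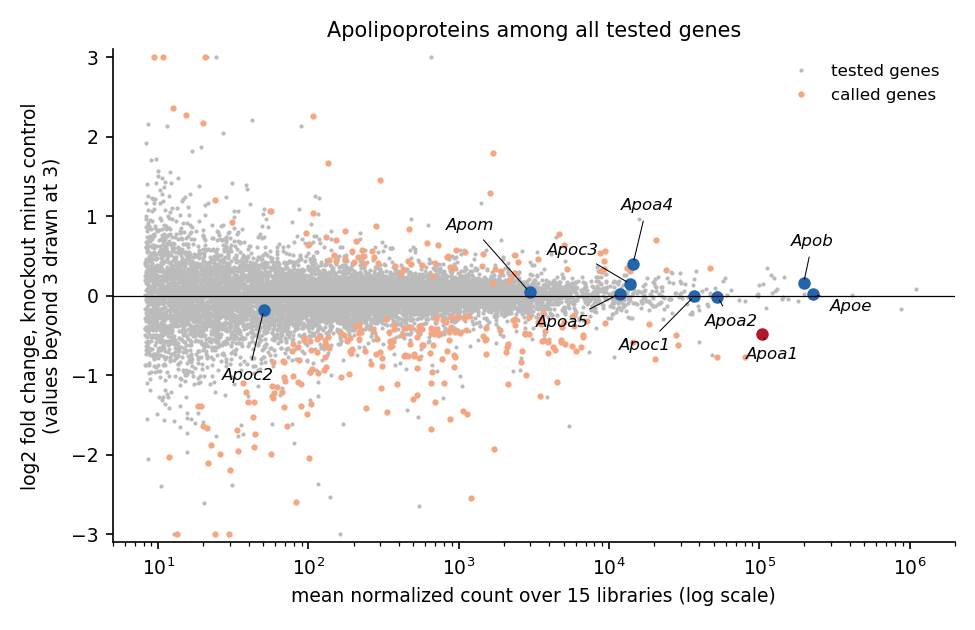
Log2 fold change (y axis, knockout minus control, fasted livers) against mean normalized count over 15 libraries (x axis, log scale) for 13335 tested genes in grey, the 292 called genes in orange and the 10 apolipoproteins in blue or, for the called gene, red. Apoa1 lies at -0.48 at a mean of 104646, and Apoc2 is the only apolipoprotein with a mean near 50.5.

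How tightly a change could be measured differed between the 10 genes. The smallest absolute Wald statistic of a called gene was 3.27, and multiplied by the SE of a gene it gives the smallest change that would have been called. For Apom that was a rise of 13.9% or a fall of 12.2%, and for Apoe a rise of 14.98% or a fall of 13.02%. Apoa1 would have been called from a fall of 22.0%. For Apoc2 the limit was a rise of 95.2% or a fall of 48.8%, and for Apoa4 a rise of 261% or a fall of 72.3%. Changes of Apoa4 of the size seen in Apoa1 were therefore not detectable in these livers.

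The SE of Apoa4 was large for its count. It was larger than that of 99.1% of the 229 tested genes with a mean within 2-fold of its own, whose median SE was 0.10. Read as a coefficient of variation between livers of a group, the SE of Apoa4 corresponds to 55.6%, that of Apoa5 to 15.6% and that of Apoa1 to 10.7%. Values for Apoe and Apom were 6.04% and 5.34%. This conversion takes 4 livers a group and removes counting noise, and the dispersion behind it was fitted by the authors over all 15 libraries. Apom had a larger SE than only 8.16% of the 1274 genes near its mean, and Apoe than 6.67% of 15.

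**Figure D4:**
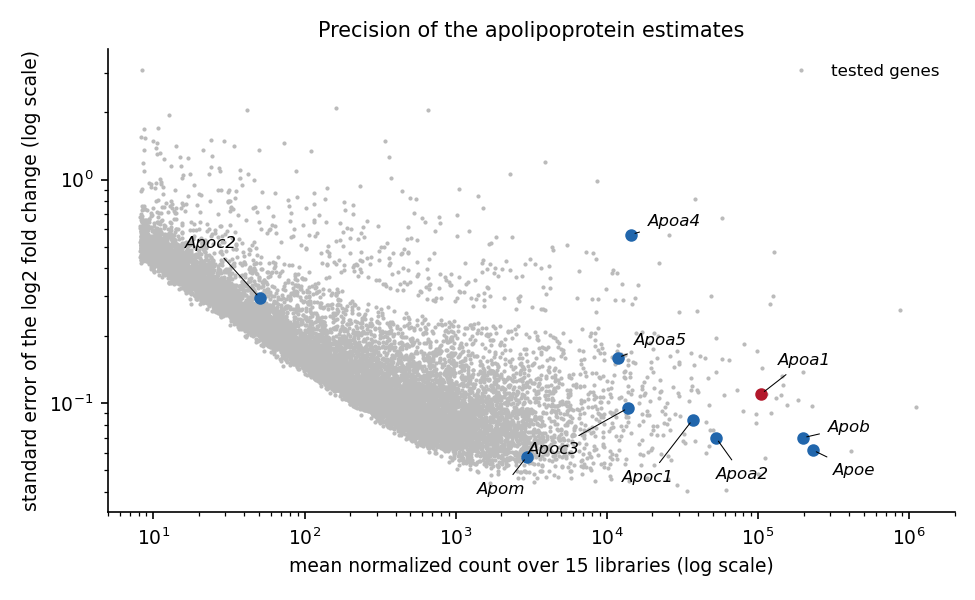
Standard error of the log2 fold change (y axis, log scale) against mean normalized count (x axis, log scale) for all tested genes in grey and the apolipoproteins in blue, with Apoa1 in red. Apoa4, at 0.57, stands above nearly all genes of its abundance, while Apom, at 0.06, lies near the lower edge.

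By position the 10 genes fall into 5 loci. Apoa1, Apoc3, Apoa4 and Apoa5 lie within 43.3 kb of chromosome 9, and Apoe, Apoc1 and Apoc2, with Apoc4, within 27.6 kb of chromosome 7. Apoa2, Apob and Apom stand alone. On chromosome 9 Apoa1 was called lower, while the estimates of Apoc3, Apoa4 and Apoa5 were positive and not called. On chromosome 7 the estimates of Apoe, Apoc1, Apoc4 and Apoc2 lay between -0.17 and 0.02.

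Of 78 tested genes within 250 kb of an apolipoprotein gene, 2 fell and 0 rose, beside 2.19% of all tested genes called, and their median log2 fold change was -0.02. In the chromosome 9 cluster 0 of 7 and in the chromosome 7 cluster 0 of 18 such neighbours passed the authors' DESeq2 Wald test, with 0 and 2 at an unadjusted p under 0.05. Sik3, a kinase gene 4.39 kb from Apoa1, had a log2 fold change of 0.03 ± 0.12 in the authors' deposited table. At the other end of the cluster Zpr1, a zinc finger gene 1.15 kb from Apoa5, stood at 0.12 ± 0.13 in the authors' deposited table. Beside Apoe, Tomm40, of the mitochondrial import pore, stood at -0.12 ± 0.10, and beside Apoc2, Clptm1 stood at -0.01 ± 0.07, both as log2 changes in the authors' deposited table. The fall of Apoa1 was thus not accompanied by a called change of a tested gene next to it.

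**Figure D5:**
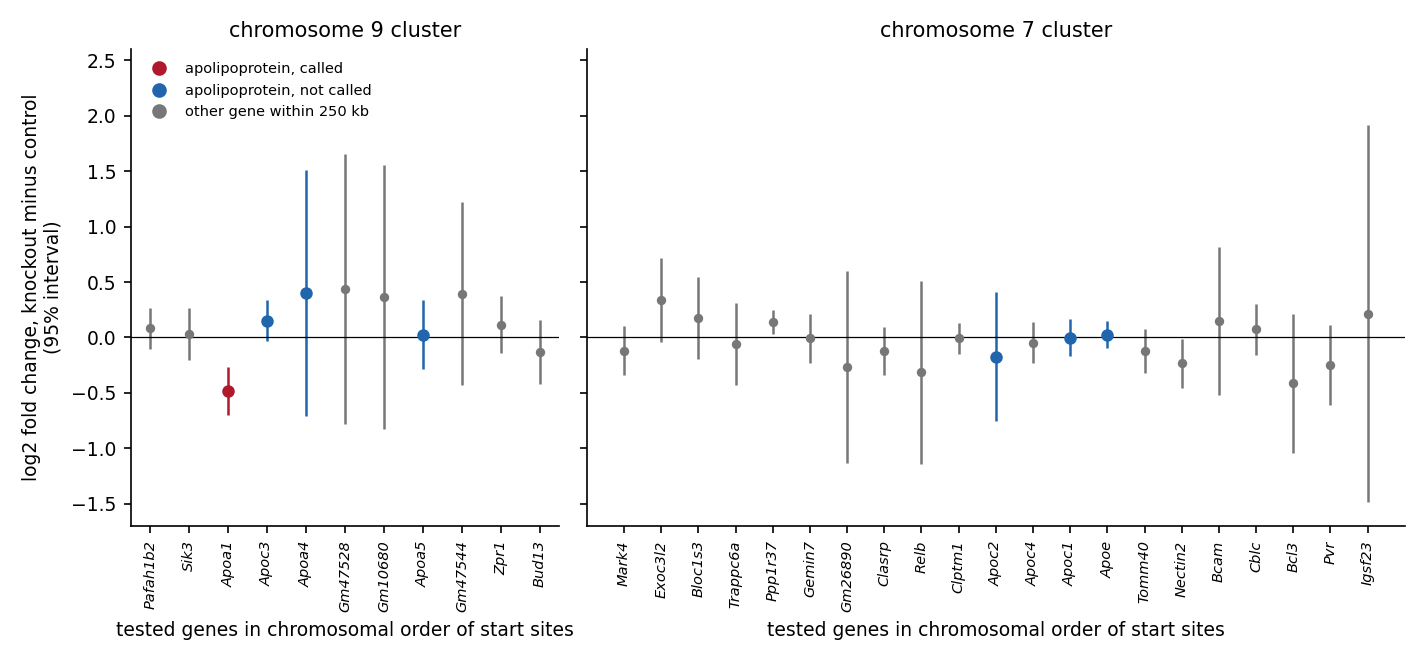
Log2 fold change (y axis, knockout minus control, with 95% intervals) of every tested gene within 250 kb of the chromosome 9 cluster (left) and the chromosome 7 cluster (right), in the order of their start sites along the chromosome (x axis). Apoa1, in red at -0.48, is the only called gene in either panel, and Apoa4 and the predicted genes beside it have the widest intervals on the left.

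The wide error of Apoa4 was shared by 2 predicted genes annotated across it on the other strand. Gm10680 had a log2 fold change of 0.37 ± 0.61 and Gm47528 of 0.44 ± 0.62 in the authors' deposited table, next to 0.40 ± 0.57 for Apoa4. Of the exon bases of Gm10680, 90.03% lie opposite exons of Apoa4, and of those of Gm47528, 28.9%. Their means were 1.33% and 0.191% of the mean of Apoa4. Gm47544 lies wholly (100%) opposite exons of Apoa5, at 0.317% of its mean, with a log2 fold change of 0.39 ± 0.42 in the authors' deposited table. Libraries were made with a stranded kit per the labels, but the strand setting of the counter is not given in the sources used here, so reads of these genes and of Apoa4 or Apoa5 may not have been told apart.

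The called neighbours were Gm48633 and H2-Q1. Gm48633 is a long noncoding RNA gene 27.6 kb upstream of Apob on the other strand, with a mean of 352.5 normalized counts. It fell, with a log2 fold change of -0.63 ± 0.10 and an adjusted p of 1.77e-07 in the authors' deposited table, while the estimate of Apob was positive. On the other side of Apob the nearest tested gene was Ldah, a lipid droplet hydrolase gene, at 0.08 ± 0.07 in the authors' deposited table. H2-Q1, a class I histocompatibility gene 188355 bases from the Apom start, averaged 13.3 normalized counts, with a log2 fold change of -3.79 ± 0.75 in the authors' deposited table. Its paralogs are alike in sequence, so its count is uncertain. Directly beside Apom, D17H6S53E and Bag6 had log2 fold changes of 0.00282 ± 0.13 and -0.000517 ± 0.07 in the authors' deposited table. Beside Apoa2, Tomm40l stood at 0.37 ± 0.21 and Fcer1g at -0.10 ± 0.25, as log2 changes in the authors' deposited table, and neither was called.

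The other genes of lipoprotein metabolism were taken from lists by role. These lists were chosen with earlier results of these data known, so their counts of calls describe the lists and do not test them. The list of HDL assembly and remodelling also holds genes that act inside the cell, such as Soat2. Of its 19 tested genes, 2 fell, 0 rose and 17 did not pass, where 2.19% of all tested genes were called. The median log2 fold change of the 19 was -0.05. An unadjusted p under 0.05 was found for 6 of the 19, and for 11.4% of all tested genes. Those that fell were Abca1, the exporter that gives cholesterol to apolipoprotein A-I, at -0.33 ± 0.07, and Soat2, which esterifies cholesterol inside the cell, at -0.56 ± 0.12 in the authors' deposited table. Named for their role and not by rank of p, Lcat and Scarb1 had log2 fold changes of 0.08 ± 0.07 and -0.23 ± 0.12 in the authors' deposited table, and neither was called. Lcat esterifies cholesterol on HDL and is activated by apolipoprotein A-I, and Scarb1 is the HDL receptor gene. The 3rd smallest p of the list was that of Tspo, at -0.28 ± 0.11 with an adjusted p of 0.194 in the authors' deposited table. The others with an unadjusted p under 0.05 were Lipg at -0.88 ± 0.38, Lipc at -0.19 ± 0.09 and Pdzk1 at 0.14 ± 0.07. None of these was called.

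Of 26 tested genes for assembly and secretion of apolipoprotein B particles, 0 passed the authors' DESeq2 Wald test, and 2 had an unadjusted p under 0.05. Among all tested genes 2.19% were called and 11.4% had such a p, so few calls would be awaited in a list of this size. The median log2 fold change of the 26 was -0.02. Mttp, the transfer protein that loads lipid onto nascent apolipoprotein B, had a log2 fold change of -0.23 ± 0.11 in the authors' deposited table, opposite in sign to Apob. Tmem41b had a log2 fold change of -0.32 ± 0.11 and Apobec1, whose enzyme edits the Apob transcript, of -0.23 ± 0.15 in the authors' deposited table. In the list of triglyceride lipolysis 0 of 13 tested genes passed the authors' DESeq2 Wald test, with 1 at an unadjusted p under 0.05, beside the same shares of all tested genes. The 1 was Gpihbp1, an endothelial anchor of lipoprotein lipase, at 0.44 ± 0.17 in the authors' deposited table. Lipe, a hormone-sensitive lipase, stood at -0.26 ± 0.14 and Lmf1, a lipase maturation factor, at -0.12 ± 0.07, as log2 changes in the authors' deposited table.

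Receptors that bind apolipoproteins B and E, with their regulators, had 2 falls, 1 rise and 23 members that did not pass among 26 tested, where 2.19% of all tested genes were called. The number with an unadjusted p under 0.05 was 3 of 26, beside 11.4% of all tested genes. Vldlr, a receptor that binds apolipoprotein E, rose at 0.58 ± 0.16 in the authors' deposited table.

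Among 17 tested genes of other apolipoproteins and proteins carried on HDL, 1 fell, 0 rose and 16 did not pass, where 2.19% of all tested genes were called. An unadjusted p under 0.05 was found for 2 of the 17. Apol9a, of the apolipoprotein L family, fell at -0.75 ± 0.22, and its near-identical copy Apol9b, at -0.44 ± 0.16 with an adjusted p of 0.120, did not pass, in the authors' deposited table. Reads that match both copies make either value uncertain. With the adjustment over all genes that have a p, Apol9a was not called (adjusted p 0.0622). Hpx, the haem carrier gene, had a log2 fold change of -0.21 ± 0.11 in the authors' deposited table.

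The list of transcription factors with apolipoprotein targets also holds cofactors such as Zfpm1. Of its 47 tested genes, 3 fell, 0 rose and 44 did not pass, where 2.19% of all tested genes were called. The median log2 fold change of the 47 was -0.01. An unadjusted p under 0.05 was found for 8 of the 47, beside 11.4% of all tested genes. Those that fell were Zfpm1, which encodes a cofactor of GATA factors, at -0.72 ± 0.16, and Srebf1 and Srebf2, the sterol-regulated factors, at -0.72 ± 0.21 and -0.46 ± 0.12 in the authors' deposited table. With the adjustment over all genes that have a p, Srebf1 was not called (adjusted p 0.0532), while Zfpm1 and Srebf2 were. The factors best known for control of Apoa1 and its cluster had small estimates, named here after their values were seen. Hnf4a was at 0.10 ± 0.07, Nr1h4, the bile acid receptor gene, at 0.09 ± 0.10, Ppara at 0.17 ± 0.12 and Creb3l3 at -0.10 ± 0.14 as log2 changes in the authors' deposited table, and none of these 4 was called. Against a t distribution with 11 degrees of freedom, 0 genes of any of these 6 lists were called.

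Other cell types that make apolipoproteins or could add to liver RNA were checked by their markers. Intestinal epithelium also makes Apoa1, Apoa4 and Apob. Of 9 intestinal markers in the table, 4 had a mean under 1 normalized count, and of their sum of 2795 normalized counts 2482 came from Anpep, which hepatocytes express too. Tff3, a trefoil factor gene with a mean of 39.4 normalized counts, was the only intestinal marker called, at -1.34 ± 0.31 in the authors' deposited table. Of 12 endothelial and 12 stellate cell markers 0 passed the authors' DESeq2 Wald test, with 4 and 0 at an unadjusted p under 0.05. Among all tested genes 2.19% were called and 11.4% had such a p. Of the endothelial markers 8 had a positive and 4 a negative estimate (median log2 fold change 0.21). Of the stellate cell markers 9 were positive and 3 negative (median 0.11). In the red blood cell list 1 of 5 tested markers fell (Alas2), in the adipose list 1 of 3 rose (Cfd), and of neutrophil and lymphocyte markers 1 was tested and 0 passed the authors' DESeq2 Wald test (1 with an unadjusted p under 0.05). With the adjustment over all genes that have a p, neither Alas2 nor Cfd was called (adjusted p 0.0539 and 0.0784). The part of these cell types in the apolipoprotein estimates was not tested.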

How the data were processed

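RNA of 15 mouse livers was sequenced by the authors. Per the labels, a stranded KAPA kit was used on RNA from TRIzol and RNeasy extraction. The submitters' processing notes name FastQC, STAR 2.6.0c, mm10 and DESeq2. Counter, strand setting and annotation: not given in the sources used here. Only gene-level results were in the deposited table, without values for single livers. Per the file headers, it holds a mean signal (counts divided by size factors, averaged by the authors), a log2 fold change with its SE, the Wald score, its p-value and the adjusted p-value deposited by the authors. The adjusted p was recomputed as a Benjamini-Hochberg adjustment over 13335 genes.

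The groups compared are not in the header. Genes with a single read gave the size factors of the 15 libraries, and a ridge-penalized negative binomial model was fitted to such reads under 28 readings of the table. Of these, 2 gave the deposited estimates within 1e-06, each differing by at most 1.36e-09. The next, at 4.37e-05, were the same contrasts from models with the other level as reference, which turn the sign of every estimate. The 2 that matched come from an interaction model over all libraries, and they are the genotype effect in fasted livers and the refeeding effect in controls. Equal group sizes make these 2 alike for single reads. The genotype effect was used, following the name of the table. Angptl4 and Angptl8, known to respond to fasting and feeding, were not called, at log2 fold changes of -0.11 ± 0.38 and 0.08 ± 0.40 in the authors' deposited table. Every direction rests on this choice.

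Members and lists were chosen with earlier results of these data known. The deposited test was used, since no fit of single livers was possible. The planned motifs were searched in RefSeq promoters, which 8 of the 10 genes have. Coordinates and exons came from GENCODE vM21 (GRCm38, the mm10 build), which matched 24944 of 24965 identifiers. The text names all 10 members, Gata4, every called gene and the 3 of smallest p in each pathway list, and called and nearest tested neighbours; exceptions are said, and 2 called genes of the receptor list are not reported here. A self-test was run on simulated statistics and on estimates made under a known reading. Python 3.11.15, pandas 2.3.3 and scipy 1.17.1 were used.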

Additional observations from a re-analysis of the deposited data

How the results depend on the processing

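Alternatives were planned; fits of values per sample (other normalizations and filters, leaving out single livers) were not run. No paired analysis was possible because single livers have no values in the file. A t distribution with 11 degrees of freedom called 38 genes in place of 292, 0 apolipoproteins lower in place of 1 and 1 neighbouring gene in place of 2. It called 0 genes in place of 2 of HDL assembly, 3 of receptors, 3 of transcription factors and 1 of other apolipoproteins. Other apolipoproteins also had 0 calls when all genes with a p entered the adjustment, and with a threshold of 0.01, at which 167 genes were called in all. Neighbouring genes had 1 call among genes with a mean of at least 100, 1 in a window of 100 kb and 4 in a window of 500 kb. The t distribution has heavier tails by construction, and the cause of the other changes was not tested. The transcription factor list had 2 calls in place of 3 when all genes with a p entered the adjustment, and 2 with a threshold of 0.01. Under the remaining alternatives these counts stayed within 1.5 times. The median log2 fold change of the 10 genes lay between 0.01 and 0.05 over its alternatives. Apoc2 rests on few counts and on exons shared with another gene, and Apoa4 has a wide spread.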
